A study of Mus musculus with 4 samples.

Results

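The genes described here are 9 genes of antibody class switching: the uracil glycosylase *Ung*, the contact signals *Cd40*, *Cd40lg*, and *Icosl*, and the cytokines *Tgfb1*, *Il10*, *Il6*, *Il4*, and *Il21*. They were taken by symbol from the 55401 genes of the deposited tables, and all 9 were found, each as 1 row. The libraries hold RNA of CD45+ cells, the leukocytes, sorted from the dura mater, the outer membrane around the brain, of wild-type male C57BL/6J mice. All mice had been injected at 4 wk of age with 2 μl of an AAV9 vector, given into the cisterna magna. The AAV-mVEGF-C vector drives expression of the whole mouse VEGF-C, a growth factor of lymphatic vessels, and AAV-CTRL encodes a soluble VEGFR3(4–7)-Ig that does not bind VEGF-C. The controls therefore also carried a virus and a secreted protein, and the cells sequenced were leukocytes sorted by CD45 without regard to whether the vector had entered them. Each group had 2 libraries, and each library was a pool of 10 to 12 mice, so p-values measure the spread between pools and not between single mice.

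In class switching, a B cell replaces the constant part of its antibody heavy chain and so goes from IgM to IgG, IgA, or IgE. Cytosines in the switch regions are deaminated, UNG removes the resulting uracils, and the breaks that follow are joined by the end-joining machinery. CD40 ligand on helper T cells, acting through CD40 on the B cell, starts the program, and cytokines direct it to a constant gene: TGF-β1 to IgA, IL-4 to IgG1 and IgE, with IL-21, IL-6, and IL-10 acting on growth and on the passage to plasma cells. The dura holds B cells and plasma cells in addition to macrophages, neutrophils, T cells, and mast cells.

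The reads assigned to genes ranged from 32520709 to 46409700 per library, and 20990 to 37512 genes had a read, the fewest in AAV-CTRL 1, which had the most reads. *Ptprc*, which encodes CD45, was at 976 to 1116 reads per 1000000 (CPM), with overlapping groups. *Vegfc* was lower after AAV-mVEGF-C, at 4.48 and 3.18 CPM in AAV-CTRL 1 and 2 against 1.71 and 1.81 CPM in AAV-mVEGF-C 1 and 2 (log2 fold change −1.13, standard error 0.45). It does not check the labels, since these were sorted leukocytes in which uptake of the vector was not measured, and its adjusted p was 0.999 (edgeR, quasi-likelihood test, Benjamini-Hochberg adjustment). Summed erythroid and fibroblast markers, of cells that a CD45 sort should leave out, were lower in both AAV-mVEGF-C libraries, with 0 of the genes called by the adjusted test. The 6 erythroid markers summed to 114 and 153 CPM in AAV-CTRL against 27.5 and 48.2 CPM in AAV-mVEGF-C, and the 7 fibroblast markers to 645 and 1110 CPM against 377 and 555 CPM, with 5 of the 6 and all 7 below a log2 fold change of 0. Their part in the results was not tested.

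None of the 9 genes passed the test between AAV-mVEGF-C and AAV-CTRL. All 9 passed the expression filter, which left 19806 genes, and each had an adjusted p of 0.999 (quasi-likelihood test of edgeR, Benjamini-Hochberg adjustment over all genes tested). The same test called 0% of all genes tested. None of the 9 had an unadjusted p under 0.05, against 2.64% of all genes tested (523 genes, 1.46% higher and 1.18% lower). The median log2 fold change of the 9 genes was 0.19, with 8 above 0 and 1 below, beside a median of 0.0034 and 50.4% above 0 for all genes tested. Both AAV-mVEGF-C libraries were above both AAV-CTRL libraries in CPM for 3 of the 9 genes, *Cd40*, *Il6*, and *Icosl*, and below them for 1, *Ung*. These 4 of 9 stand beside 32.1% of all genes tested that did not overlap in either direction (15.4% higher and 16.7% lower). In TPM (transcripts per 1000000, reads scaled by transcript length), 3 of the 9 were higher in both AAV-mVEGF-C libraries, *Il6*, *Il21*, and *Icosl*, and 0 were lower, beside 37.4% of all genes tested that did not overlap in TPM (8.92% higher and 28.5% lower). In a bulk sample, fewer cells of a type and less RNA per cell cannot be told apart.

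**Figure D1:**
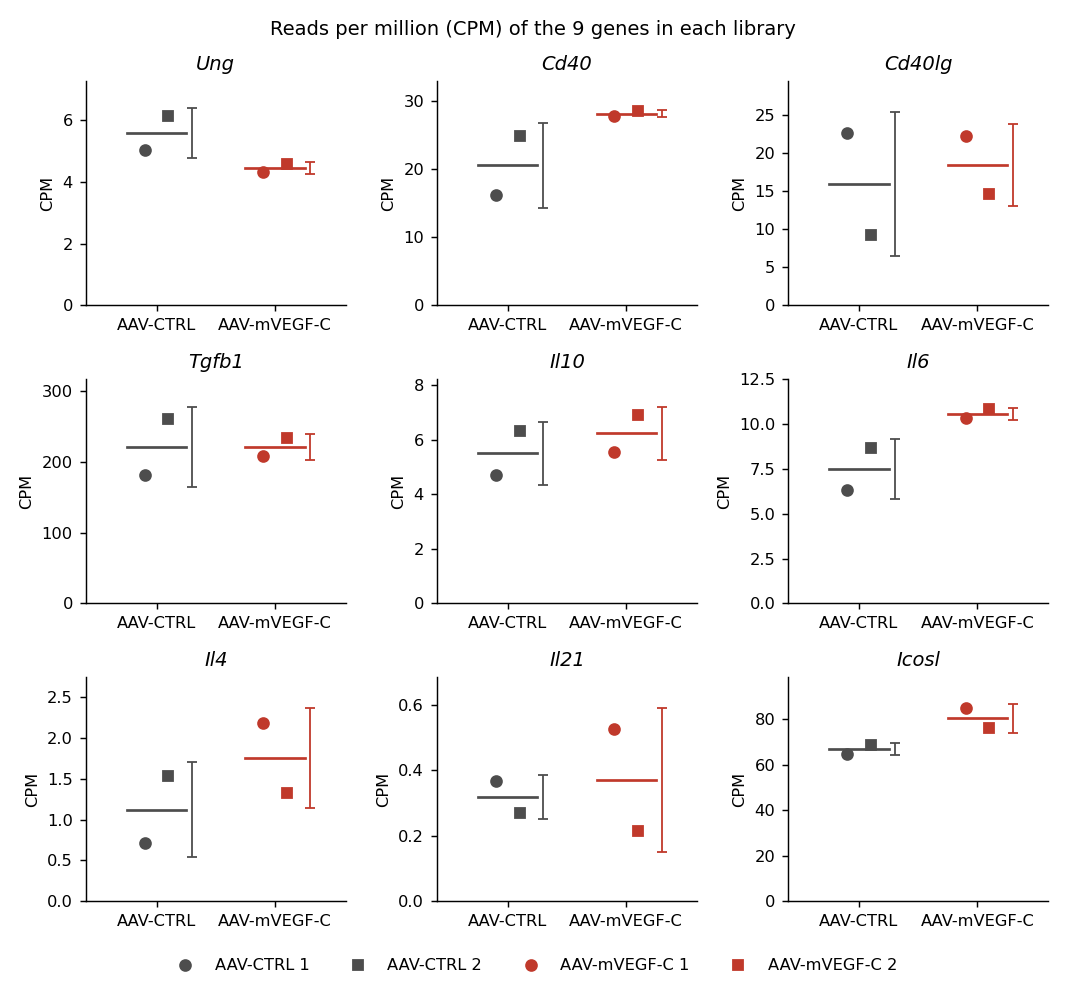
Reads per 1000000 (CPM, y axis, from 0) of the 9 genes in each library, with circles for replicate 1, squares for replicate 2, horizontal lines for group means, and bars for the SD of n = 2 pools. The groups do not overlap for *Ung*, *Cd40*, *Il6*, and *Icosl*, and the AAV-CTRL pools of *Cd40lg* lie at 22.6 and 9.21 CPM, on both sides of AAV-mVEGF-C 2.

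Counted per length in TPM, the 9 genes spanned a wide range of levels. *Tgfb1* was the most abundant at 62.2 to 86.5 TPM over the 4 libraries, followed by *Icosl* at 18.3 to 22.0 TPM. Next came *Cd40lg* at 6.81 to 16.3 TPM, *Cd40* at 6.30 to 12.7 TPM, and *Il6* at 5.11 to 8.39 TPM. *Cd40lg* and *Cd40* overlapped in level, as did *Cd40* and *Il6*. *Il10* was at 3.16 to 4.38 TPM, *Il4* at 1.37 to 3.47 TPM, and *Ung* at 1.27 to 2.52 TPM. *Il10* overlapped *Il4*, and *Il4* overlapped *Ung*, so the order within these pairs was not resolved. *Il21* was lowest at 0.080 to 0.161 TPM, which rested on 7 to 20 reads per library.

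Windows of 250 bases before an annotated start were at hand in RefSeq (build GRCm38.p6) for *Ung*, *Tgfb1*, *Il6*, *Il4*, *Il21*, and *Icosl*, and not for *Cd40*, *Cd40lg*, and *Il10*. The windows of *Il6*, whose groups did not overlap in CPM and did not overlap in TPM, and of *Tgfb1*, the most abundant of the 9 genes, whose groups overlapped, are printed 5′ to 3′ in the direction of the gene. Both lie on the plus strand, at chr5:30012864-30013113 for *Il6* and chr7:25686752-25687001 for *Tgfb1*. Capitals mark matches on either strand, to the NF-κB motif in *Il6* and to the GC box, GGGCGG, in *Tgfb1*.

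Il6: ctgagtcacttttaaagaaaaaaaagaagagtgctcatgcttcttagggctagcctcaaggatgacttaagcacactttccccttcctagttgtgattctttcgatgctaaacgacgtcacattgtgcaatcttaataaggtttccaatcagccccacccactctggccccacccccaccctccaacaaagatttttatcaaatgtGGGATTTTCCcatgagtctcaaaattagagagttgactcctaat

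Tgfb1: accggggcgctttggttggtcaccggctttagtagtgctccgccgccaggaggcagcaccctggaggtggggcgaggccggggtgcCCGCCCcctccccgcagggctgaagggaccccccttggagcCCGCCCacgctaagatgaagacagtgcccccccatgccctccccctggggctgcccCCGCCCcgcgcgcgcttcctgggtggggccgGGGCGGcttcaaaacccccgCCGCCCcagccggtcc

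The *Il6* window held an NF-κB match 44 bases before the start, and 3.90% of all 32851 windows held one. It also held a match to the motif of the factor AP-1, not in capitals, 249 bases before the start. An AP-1 match was found in 6.75% of all windows. The *Tgfb1* window held 5 GC boxes, a motif found at least once in 32.7% of all windows, and no NF-κB match. GC content was 42.8% in the *Il6* window and 75.2% in that of *Tgfb1*. A match describes the letters only and says nothing of a factor being bound in these cells.

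*Ung* encodes the uracil DNA glycosylase that acts in the switch regions, and it also repairs uracil in dividing cells of every type (ENSMUSG00000029591.14; GRCm38 chromosome 5, 114130386 to 114139323, plus strand). It had 233 and 205 reads in AAV-CTRL 1 and 2 and 164 and 149 reads in AAV-mVEGF-C 1 and 2. Scaled to library size this was 5.02 and 6.15 CPM against 4.31 and 4.58 CPM, so both AAV-mVEGF-C libraries were below both controls. The means were 5.59 ± 0.798 CPM (SD, n = 2) and 4.45 ± 0.192 CPM, and the log2 fold change was −0.33 (standard error 0.32, 95% interval −1.11 to 0.46). In TPM the groups overlapped, with 1.70 and 2.52 TPM in AAV-CTRL and 1.27 and 1.98 TPM in AAV-mVEGF-C. The interval reaches from 0.463-fold to 1.37-fold, so neither a lower nor a higher level was shown.

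Among the 33 other switch recombination and repair genes, 20 had a log2 fold change below 0 and 13 above, with a median of −0.04. Of these 33 genes, 13 were lower and 4 higher in both AAV-mVEGF-C libraries in CPM, beside 16.7% lower and 15.4% higher among all genes tested. One had an unadjusted p under 0.05, and 0 passed the adjusted test. That gene was *Xrcc6*, which encodes the Ku70 part of the complex that holds broken DNA ends, at 33.2 and 35.1 CPM in AAV-CTRL against 22.6 and 25.7 CPM in AAV-mVEGF-C (a log2 fold change of −0.50, standard error 0.18). Its groups stood apart, with an adjusted p of 0.999 (edgeR). *Lig4*, the ligase of end joining, was at 7.61 and 10.2 CPM in AAV-CTRL against 4.91 and 6.0 CPM in AAV-mVEGF-C (a log2 fold change of −0.70, standard error 0.31). *Shld1*, a member of the shieldin complex that protects DNA ends from trimming, lay on the other side, at 1.34 and 2.76 CPM in AAV-CTRL against 3.94 and 4.03 CPM in AAV-mVEGF-C (0.98, standard error 0.48). The largest differences in this list thus pointed both ways. Of all the genes in the lists, the one whose profile over the 4 libraries lay closest to that of *Ung* was *Parp1*, which encodes a sensor of DNA breaks (root mean square distance 0.0417 in centered log2(CPM + 1), among 236 genes). *Parp1* was at 139 and 157 CPM in AAV-CTRL against 123 and 133 CPM in AAV-mVEGF-C.

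*Cd40* encodes the receptor by which B cells, dendritic cells, and macrophages take the signal of CD40 ligand (ENSMUSG00000017652.16; chromosome 2, 165055627 to 165072948, plus strand). It had 750 and 830 reads in AAV-CTRL and 1056 and 927 reads in AAV-mVEGF-C, or 16.2 and 24.9 CPM against 27.8 and 28.5 CPM. The AAV-mVEGF-C libraries lay close together and above both controls, and the controls were far apart. The means were 20.5 ± 6.18 CPM (SD, n = 2) and 28.1 ± 0.533 CPM, with a log2 fold change of 0.46 (standard error 0.23, 95% interval −0.10 to 1.03), the smallest unadjusted p of the 9 genes at 0.0927 (edgeR). AAV-CTRL 1 set much of the size of this difference. Without AAV-CTRL 1 the log2 fold change was 0.22, and without AAV-CTRL 2 it was 0.74 with an adjusted p of 0.0420 (edgeR), a setting in which 9.08% of all genes tested were called (6.16% as higher). In TPM, AAV-CTRL 2 lay between the AAV-mVEGF-C libraries, with 6.30 and 12.3 TPM in AAV-CTRL and 12.2 and 12.7 TPM in AAV-mVEGF-C, so the groups overlapped.

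Markers of the cells that carry CD40 gave the following values, and the adjusted test called 0 of them. The 8 B cell markers summed to 296 and 721 CPM in AAV-CTRL against 331 and 347 CPM in AAV-mVEGF-C, and none of the 8 had a log2 fold change above 0, although AAV-CTRL 1 had the lowest sum of all 4 libraries. The 8 dendritic cell markers summed to 337 and 391 CPM in AAV-CTRL against 431 and 418 CPM in AAV-mVEGF-C, and all 8 had a log2 fold change above 0 (median 0.24). The 10 macrophage markers summed to 1860 and 2871 CPM in AAV-CTRL against 1688 and 2335 CPM in AAV-mVEGF-C, with none above 0. *Cd40* was thus low in AAV-CTRL 1, where B cell and dendritic cell markers were low too, and its groups stood in the same order as those of the dendritic cell sum. The part of these cells in the level of *Cd40* was not tested. The nearest profiles to that of *Cd40* were *Icos*, the receptor of ICOS ligand (distance 0.0272), and *Zbtb46*, a dendritic cell transcription factor (0.0436). *Zbtb46* was at 17.3 and 25.6 CPM in AAV-CTRL against 29.4 and 28.1 CPM in AAV-mVEGF-C.

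Downstream of CD40, TRAF adaptors and the kinase NIK lead to NF-κB, whose target genes include *Cd80*, a costimulatory ligand for T cells. Of the 19 genes of this relay, 16 had a log2 fold change above 0 and 3 below, with a median of 0.17. Both AAV-mVEGF-C libraries were above both controls in CPM for 9 of the 19 and below them for 0, beside 15.4% higher and 16.7% lower among all genes tested. The adjusted test called 0 of them. *Cd80* was at 14.2 and 13.7 CPM in AAV-CTRL against 25.5 and 23.7 CPM in AAV-mVEGF-C, a difference of 0.81 on the log2 scale (standard error 0.19) with an unadjusted p of 0.00499 and an adjusted p of 0.999 (edgeR). Its libraries agreed closely within each group, unlike those of *Cd40*. *Relb*, a subunit of the noncanonical NF-κB pathway, was at 34.0 and 52.4 CPM in AAV-CTRL against 52.9 and 62.7 CPM in AAV-mVEGF-C (0.43, standard error 0.23). Many cell types use this relay, so its genes do not report on B cells alone.

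**Figure D2:**
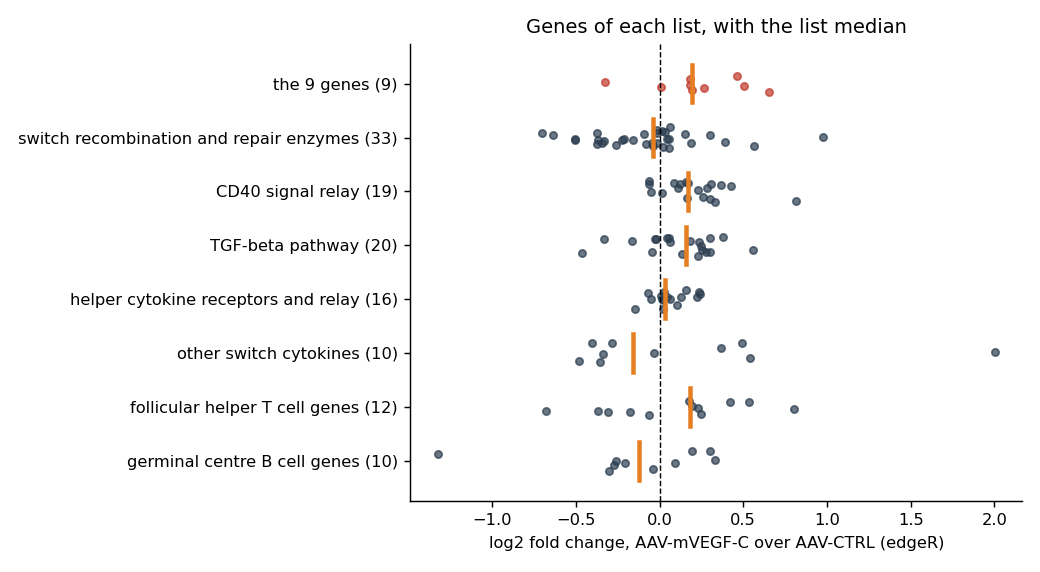
Log2 fold change of AAV-mVEGF-C over AAV-CTRL (x axis, edgeR) for each tested gene of the 9 genes and of 7 lists, with the number of genes in brackets, orange bars for list medians, and a dashed line at the median of all genes tested, 0.0034. The CD40 relay lies mostly to the right, with a median of 0.17, the repair enzymes spread to both sides, and the point farthest right is *Il17a* at 2.00.

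*Cd40lg* encodes CD40 ligand, which activated CD4+ T cells display and which basophils, eosinophils, mast cells, and platelets can also make (ENSMUSG00000031132.1; chromosome X, 57212143 to 57224042, plus strand). It had 1049 and 307 reads in AAV-CTRL and 848 and 477 reads in AAV-mVEGF-C, or 22.6 and 9.21 CPM against 22.3 and 14.7 CPM. One library of each group was high and one low, and the controls were the highest and the lowest of all 4. The means were 15.9 ± 9.47 CPM (SD, n = 2) and 18.5 ± 5.39 CPM, with a log2 fold change of 0.18 (standard error 0.46, 95% interval −0.94 to 1.30). Its direction depended on single libraries. It was 1.04 without AAV-CTRL 1 (adjusted p = 0.108, edgeR), −0.35 without AAV-CTRL 2, −0.11 without AAV-mVEGF-C 1, and 0.42 without AAV-mVEGF-C 2.

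T cell markers did not share the spread of *Cd40lg*. The 10 T cell markers summed to 321 and 314 CPM in AAV-CTRL against 379 and 343 CPM in AAV-mVEGF-C. Per unit of *Cd4*, *Cd40lg* stood at a TPM ratio of 1.38 and 0.591 in AAV-CTRL and 1.11 and 0.729 in AAV-mVEGF-C, so the same libraries were high after scaling to a T cell gene. The 8 basophil and eosinophil markers summed to 291 and 100 CPM in AAV-CTRL against 238 and 204 CPM in AAV-mVEGF-C, the same order of libraries as *Cd40lg*. The eosinophil gene *Prg2* made up most of this sum. The basophil genes *Mcpt8* and *Prss34* were highest in AAV-CTRL 2, where *Cd40lg* was lowest, at 0.517 and 1.41 CPM (*Mcpt8*) and 1.62 and 3.93 CPM (*Prss34*) in AAV-CTRL 1 and 2. *Cd200r3*, a basophil and mast cell receptor, was at 13.8 and 10.3 CPM in AAV-CTRL against 6.52 and 6.27 CPM in AAV-mVEGF-C. The sum of the 8 neutrophil markers was also highest in AAV-CTRL 1 and lowest in AAV-CTRL 2, at 21545 and 9704 CPM in AAV-CTRL against 13199 and 13599 CPM in AAV-mVEGF-C. The mast cell sum, 2511 and 1860 CPM in AAV-CTRL against 1700 and 1690 CPM in AAV-mVEGF-C, and the platelet and megakaryocyte sum, 110 and 93.7 CPM against 93.5 and 101 CPM, did not follow the library order of *Cd40lg*. The genes nearest in profile were both from the basophil and eosinophil list, *Epx* (distance 0.211), the eosinophil peroxidase, and *Prg2* (0.231), the eosinophil major basic protein, although these distances were larger than those of the nearest genes of the other 8 genes. *Epx* was at 47.8 and 13.9 CPM in AAV-CTRL against 42.2 and 32.0 CPM in AAV-mVEGF-C. Over 4 libraries such likeness is a description, and the part of these cells in the level of *Cd40lg* was not tested.

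**Figure D3:**
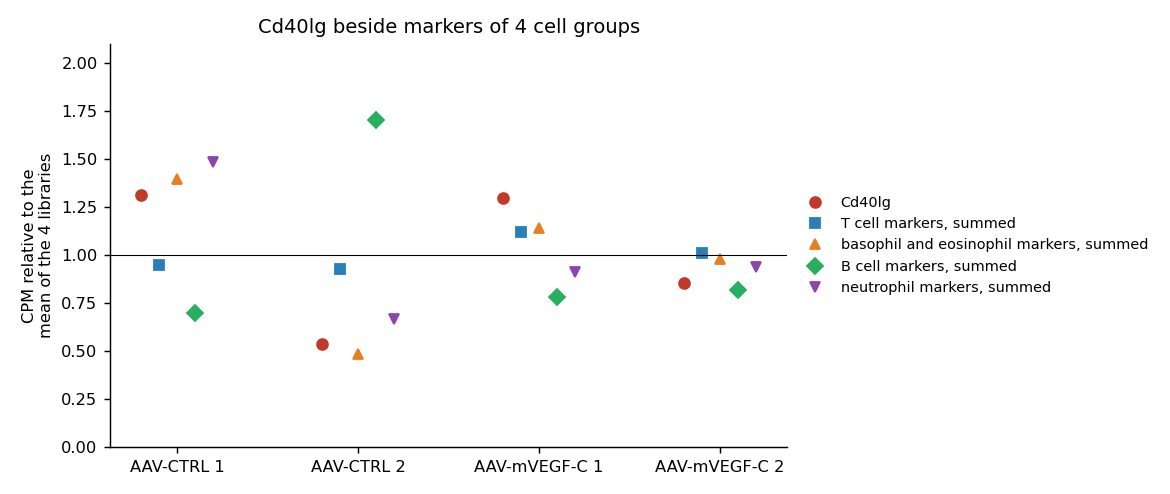
CPM relative to the mean of the 4 libraries (y axis, from 0) for *Cd40lg* and for the summed markers of 4 cell groups, in each library. *Cd40lg*, the basophil and eosinophil sum, and the neutrophil sum are highest in AAV-CTRL 1 and lowest in AAV-CTRL 2, the T cell sum stays near 1, and the B cell sum is highest in AAV-CTRL 2.

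The receptor stood against its ligand differently in the controls. The TPM ratio of *Cd40* to *Cd40lg* was 0.386 in AAV-CTRL 1 and 1.80 in AAV-CTRL 2, with values of 0.869 and 1.27 in AAV-mVEGF-C 1 and 2. The AAV-mVEGF-C values fell inside the span of the controls.

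*Icosl* encodes ICOS ligand, by which B cells and other antigen-presenting cells sustain follicular helper T cells (ENSMUSG00000000732.9; chromosome 10, 78069302 to 78083913, plus strand). It had 3010 and 2288 reads in AAV-CTRL and 3232 and 2469 reads in AAV-mVEGF-C, or 64.9 and 68.6 CPM against 84.9 and 75.9 CPM. The groups did not overlap in CPM, nor in TPM, where they were at 18.3 and 20.1 TPM against 22.0 and 20.6 TPM. The means were 66.7 ± 2.67 CPM (SD, n = 2) and 80.4 ± 6.37 CPM. The log2 fold change was 0.26 (standard error 0.15, 95% interval −0.10 to 0.62), the smallest standard error of the 9 genes, and the interval leaves out a difference larger than 1.54-fold. The nearest profile was that of *Flt3*, the receptor of a dendritic cell growth factor, at 58.7 and 59.9 CPM in AAV-CTRL against 74.7 and 65.3 CPM in AAV-mVEGF-C (distance 0.0263).

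The receptor *Icos*, found on activated T cells and type 2 innate lymphoid cells, was at 56.5 and 83.3 CPM in AAV-CTRL against 94.0 and 93.0 CPM in AAV-mVEGF-C (a log2 fold change of 0.42, standard error 0.20). Ligand and receptor were thus both higher in both AAV-mVEGF-C libraries, as were 15.4% of all genes tested, with neither passing the test. *Icos* was lowest in AAV-CTRL 1, as was *Cd40*. *Icos* belongs to a list of 12 follicular helper T cell genes, of which 7 had a log2 fold change above 0 and 5 below (median 0.18), with 0 at an unadjusted p under 0.05. In this list *Tox2*, a transcription factor of these cells, was at 1.21 and 2.16 CPM in AAV-CTRL against 3.26 and 2.58 CPM in AAV-mVEGF-C. *Sh2d1a*, the adaptor SAP, was at 4.85 and 3.03 CPM against 2.63 and 2.37 CPM, so these 2 genes stood in opposite directions. The 10 germinal center B cell genes had a median of −0.12, with 4 above 0 and 6 below. The lowest of them was *Rgs13*, a regulator of chemokine signaling that mast cells also express, at 2.41 and 1.92 CPM in AAV-CTRL against 0.946 and 0.799 CPM in AAV-mVEGF-C (−1.32, standard error 0.57). The sum of the 9 mast cell markers, given beside *Cd40lg*, was also lower in both AAV-mVEGF-C libraries. Of these markers, 7 had a log2 fold change below 0 and 2 above. The part of mast cells in the level of *Rgs13* was not tested. The other large difference in the germinal center list was that of *Basp1*, a membrane protein, at 41.9 and 58.9 CPM in AAV-CTRL against 54.7 and 71.6 CPM in AAV-mVEGF-C, with overlapping groups (0.33, standard error 0.23).

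*Tgfb1* encodes TGF-β1, the cytokine that directs switching to IgA (ENSMUSG00000002603.15; chromosome 7, 25687002 to 25705077, plus strand). It had 8409 and 8686 reads in AAV-CTRL and 7923 and 7595 reads in AAV-mVEGF-C, or 181 and 261 CPM against 208 and 234 CPM. Both AAV-mVEGF-C values lay between the controls. The means were 221 ± 56.1 CPM (SD, n = 2) and 221 ± 17.9 CPM, and the log2 fold change was 0.0060 (standard error 0.20, 95% interval −0.49 to 0.50). The interval reaches from 0.713-fold to 1.41-fold, so larger differences in either direction fall outside it.

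Around *Tgfb1*, 14 of 20 genes of the TGF-β pathway had a log2 fold change above 0 and 6 below (median 0.16). None had an unadjusted p under 0.05. The largest difference was that of *Itgb8*, the integrin chain that frees TGF-β from its latent form, at 0.646 and 3.90 CPM in AAV-CTRL against 3.39 and 3.14 CPM in AAV-mVEGF-C. Its controls enclosed both AAV-mVEGF-C libraries. *Tgfb2*, a second ligand, was at 1.70 and 3.60 CPM against 1.68 and 2.12 CPM, with overlapping groups. The TPM ratio of *Tgfb1* to *Tgfbr2*, the receptor that binds it, stayed between 1.68 and 1.81 in the 4 libraries.

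*Il6* encodes interleukin 6, made by stimulated macrophages, B cells, and stromal cells, which supports plasma cells (ENSMUSG00000025746.11; chromosome 5, 30013114 to 30019981, plus strand). It had 293 and 289 reads in AAV-CTRL and 393 and 352 reads in AAV-mVEGF-C, or 6.31 and 8.67 CPM against 10.3 and 10.8 CPM. Both AAV-mVEGF-C libraries were above both controls, and this held in TPM too, at 5.11 and 7.07 TPM against 7.16 and 8.39 TPM, though AAV-CTRL 2 lay just under AAV-mVEGF-C 1. The means were 7.49 ± 1.67 CPM (SD, n = 2) and 10.6 ± 0.351 CPM, with a log2 fold change of 0.50 (standard error 0.27, 95% interval −0.16 to 1.16). The interval reaches from 0.896-fold to 2.24-fold. The nearest profile was that of *Sdc1*, the plasma cell surface marker CD138 (distance 0.0429), at 18.5 and 23.7 CPM in AAV-CTRL against 30.5 CPM in both AAV-mVEGF-C libraries. The second was *Rora*, from the list of type 2 innate lymphoid cell markers (0.0543). *Rora* was at 111 and 154 CPM in AAV-CTRL against 185 and 175 CPM in AAV-mVEGF-C. The 8 plasma cell markers summed to 450 and 502 CPM in AAV-CTRL against 963 and 923 CPM in AAV-mVEGF-C. *Jchain*, which encodes the joining chain of IgA and IgM, made up most of this sum and of its difference, and the other 7 markers summed to 198 and 225 CPM against 273 and 261 CPM. The part of plasma cells or type 2 innate lymphoid cells in the level of *Il6* was not tested.

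Counted per length, *Il6* stood at 0.247 and 0.367 of its receptor *Il6ra* in AAV-CTRL and 0.383 and 0.451 in AAV-mVEGF-C. *Il6ra* itself overlapped between the groups, at 115 to 131 CPM. The receptors and kinases of the helper cytokines had a median log2 fold change of 0.03, with 13 of 16 above 0 and none at an unadjusted p under 0.05. The largest of them were *Socs3*, an inhibitor induced by IL-6 and IL-10 (0.24, standard error 0.21), and *Jak2*, a receptor kinase (0.24, standard error 0.17).

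*Il10* encodes interleukin 10, a cytokine that restrains macrophages and supports B cells (ENSMUSG00000016529.5; chromosome 1, 131019845 to 131024974, plus strand). It had 211 to 218 reads in 3 libraries and 225 reads in AAV-mVEGF-C 2, or 4.70 and 6.33 CPM in AAV-CTRL against 5.55 and 6.92 CPM in AAV-mVEGF-C. The groups overlapped, with means of 5.51 ± 1.15 CPM (SD, n = 2) and 6.23 ± 0.971 CPM. The log2 fold change was 0.18 (standard error 0.33, 95% interval −0.62 to 0.99), which turned to −0.03 without AAV-mVEGF-C 2.

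*Il4* encodes interleukin 4, which directs switching to IgG1 and IgE and is made by follicular helper T cells, basophils, and eosinophils (ENSMUSG00000000869.12; chromosome 11, 53602982 to 53618669, minus strand). It had 33 and 51 reads in AAV-CTRL and 83 and 43 reads in AAV-mVEGF-C, or 0.711 and 1.53 CPM against 2.18 and 1.32 CPM. AAV-mVEGF-C 2 lay between the controls, so the groups overlapped. At this depth the 95% counting interval of AAV-CTRL 1, 0.489 to 0.999 CPM, overlapped that of AAV-mVEGF-C 2 but not that of AAV-mVEGF-C 1, and the interval of AAV-CTRL 2, 1.14 to 2.01 CPM, overlapped those of both AAV-mVEGF-C libraries, 1.74 to 2.70 CPM and 0.957 to 1.78 CPM. These exact Poisson intervals allow for the error of counting reads alone. PCR copies are not separate molecules, so the intervals may be too narrow even for that error. The log2 fold change was the largest of the 9 genes, 0.65, with a standard error as large, 0.66 (95% interval −0.97 to 2.27), and ranged from 0.23 to 1.23 when single libraries were left out.

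*Il21* encodes interleukin 21, the cytokine of follicular helper T cells that drives B cells to plasma cells (ENSMUSG00000027718.8; chromosome 3, 37222759 to 37232636, minus strand). It had 17 and 9 reads in AAV-CTRL and 20 and 7 reads in AAV-mVEGF-C, or 0.366 and 0.270 CPM against 0.526 and 0.215 CPM. AAV-mVEGF-C held both the highest and the lowest library. The log2 fold change was 0.19 (standard error 1.29). The 95% interval reaches from 0.129-fold to 10.1-fold, so neither a lower nor a higher level was shown. In TPM both AAV-mVEGF-C libraries were higher, at 0.161 and 0.140 TPM against 0.1 and 0.080 TPM. The value of 1 CPM in TPM was 0.650 in AAV-mVEGF-C 2 and 0.273 to 0.306 in the other libraries, so the order of the groups in TPM came with a different scale in 1 library. The gene overlaps *Gm12534* on the opposite strand, and whether strand was used in counting is not given in the sources used here.

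**Figure D4:**
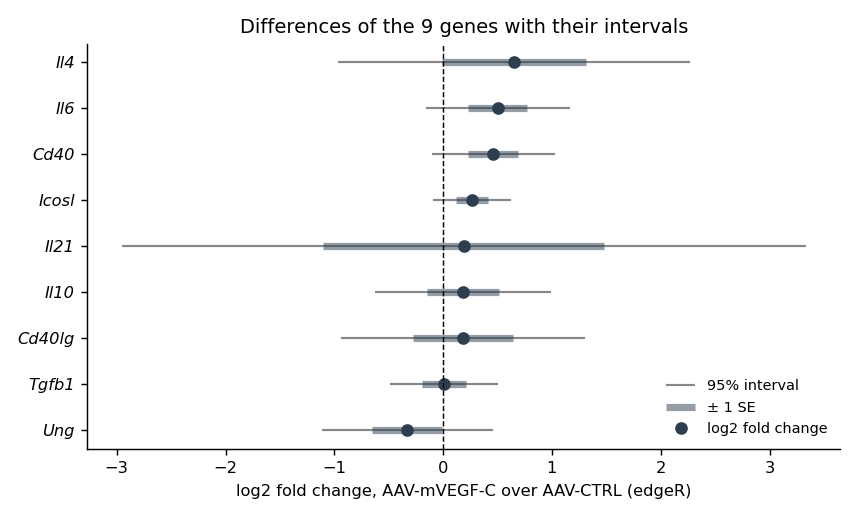
Log2 fold change of AAV-mVEGF-C over AAV-CTRL (x axis, edgeR) for the 9 genes, with thick bars for 1 standard error on each side and thin lines for 95% intervals. All 9 intervals include 0, with *Icosl* the narrowest (−0.10 to 0.62) and *Il21* the widest.

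A list of other cytokine genes, not all of which direct switching, was mixed. Of its 10 genes, 4 had a log2 fold change above 0 and 6 below, with a median of −0.16. *Il17a*, a cytokine of γδ and Th17 cells, was the one with an unadjusted p under 0.05, at 5.75 and 1.38 CPM in AAV-CTRL against 22.7 and 7.16 CPM in AAV-mVEGF-C (log2 difference 2.00, with a standard error of 0.80, and adjusted p = 0.999 with edgeR). Both AAV-mVEGF-C libraries were above both controls, and AAV-mVEGF-C 2 lay close to AAV-CTRL 1. *Il27*, made by dendritic cells and macrophages, was at 0.819 and 1.02 CPM against 1.16 and 1.51 CPM (0.54, standard error 0.67). Over the 7 lists, 118 genes were tested, 3 had an unadjusted p under 0.05 (*Cd80*, *Xrcc6*, and *Il17a*), beside 2.64% of all genes tested, and the median log2 fold change was 0.04. Both AAV-mVEGF-C libraries were above both controls in CPM for 29 of the 118 genes and below them for 23. Among all genes tested the shares were 15.4% and 16.7%.

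Leaving out 1 library at a time sorted the 9 genes by how far their direction rested on single pools. *Cd40*, *Icosl*, *Il6*, and *Il4* stayed above 0 and *Ung* stayed below 0 in each of the 4 fits. *Icosl* moved the least. The sign of *Cd40lg*, *Tgfb1*, *Il10*, and *Il21* turned in at least 1 fit.

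**Figure D5:**
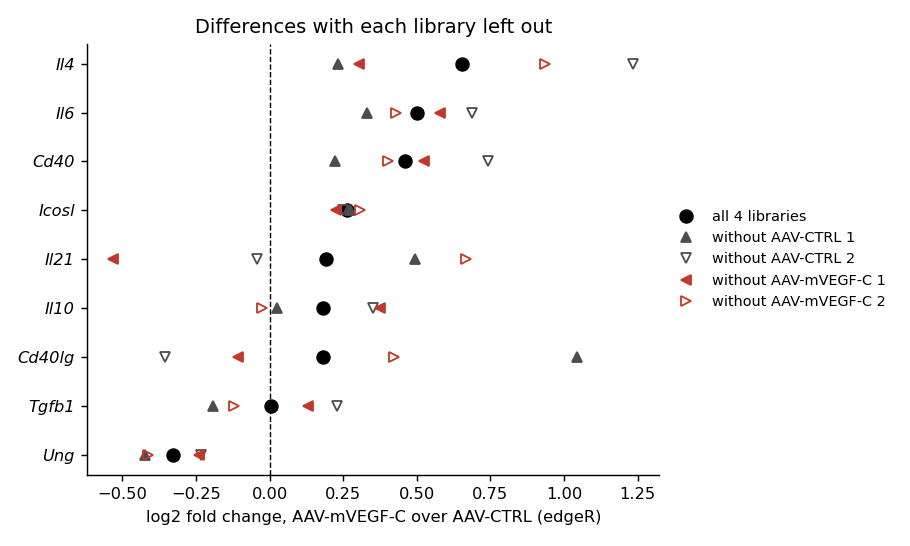
Log2 fold change of AAV-mVEGF-C over AAV-CTRL (x axis, edgeR) of the 9 genes with all 4 libraries (black circles) and with each library left out in turn (triangles, gray for AAV-CTRL and red for AAV-mVEGF-C, filled for replicate 1 and open for replicate 2). *Cd40lg* spans −0.35 to 1.04, and the marks of *Icosl* nearly coincide.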

How the data were processed

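RNA of sorted dural CD45+ cells was sequenced as paired reads from stranded total RNA libraries made with a kit for picogram inputs, 2 libraries per group. The authors deposited estimated counts per gene without normalization (8.18% of values had decimals), which were rounded to whole numbers, and the authors also deposited TPM values of the same genes. The submitters' processing notes list FastQC, Trimmomatic, DRAGEN, Picard, and mm10, without versions or roles; the counting program is not given in the sources used here.

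Groups were compared with edgeR 4.0.16 in R 4.3.3: glmQLFit and glmQLFTest at their defaults, TMM scaling (factors 0.964 to 1.03), filterByExpr (19806 of 55401 genes), no covariate, and Benjamini-Hochberg adjusted p under 0.05. The standard error is the size of the log2 fold change divided by the square root of F, and its 95% interval uses the t distribution of the fit. CPM are reads per 1000000 assigned reads, unscaled by TMM. An exact permutation test of 2 against 2 cannot go below p = 0.333 and was not used. Alternatives were DESeq2 1.42.0 (the tool of the study's methods), limma-voom (limma 3.58.1), RLE size factors, library size alone, no filter, at least 10 reads in every library, TPM with pseudocounts of 1 and 0.1, a replicate block, and leaving out each library. A crossed block was added after seeing the data.

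The 9 genes and all lists were chosen with earlier results of these data known. Named genes were the 9 genes, *Vegfc*, and in each list those with an unadjusted p under 0.05 and the 2 largest differences. For each of the 9, the 2 list genes nearest in centered log2(CPM + 1) were also found, of which some are printed. Those of *Tgfb1*, *Il10*, *Il4*, and *Il21* are not named as such, nor are the second of *Ung* (*Il12a*) and of *Icosl* (*Birc3*). Markers of cell types were taken by list, and some are given singly. *Il6ra* and *Tgfbr2* are given as receptors of *Il6* and *Tgfb1*. One gene of the lists is not reported here on its own. Coordinates are from GENCODE M21 on GRCm38. Sequences are from RefSeq, searched on both strands.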

Additional observations from a re-analysis of the deposited data

How the results depend on the processing

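No alternative that kept all 4 libraries called any of the 9 genes, and leaving out 1 library called 0 to 1 of them (*Cd40* without AAV-CTRL 2). Over all genes, edgeR called 0 (523 at an unadjusted p under 0.05). DESeq2 called 77 and edgeR without a filter 268. A replicate block on the experiment numbers called 11 and the crossed block, chosen after seeing the data, 54. Leaving out 1 library gave 0 to 1798, namely 212 without AAV-CTRL 1, 1798 without AAV-CTRL 2, and 2 without AAV-mVEGF-C 1. The block changed no call among the 9 genes. Deviations of same-numbered libraries correlated at −0.0183 in log2(CPM + 1) across genes, and the column labels disagree with the experiment numbers, so the pairing is not settled. limma-voom, RLE size factors, library size alone, at least 10 reads in every library, and both TPM pseudocounts called 0, with 505 to 1000 genes at an unadjusted p under 0.05. Among the list genes, 0 were called, against 1 without a filter (*Il17a*) and 0 to 9 with 1 library left out (*Il17a* without AAV-CTRL 1, and 9 genes, *Cd80* and *Icos* among them, without AAV-CTRL 2). The groups of 4 of the 9 genes did not overlap in CPM, of 3 in TPM, and of 6 to 8 with 1 library left out, when 53.4% to 82.3% of all genes tested did not overlap. *Tgfb1* reversed to −0.016 without a filter and to −0.200 and −0.202 in TPM with pseudocounts of 1 and 0.1. It ranged from −0.19 to 0.23 with 1 library left out (reversed without AAV-CTRL 1 or AAV-mVEGF-C 2). With 1 library left out, *Cd40lg* ranged from −0.35 to 1.04 (reversed without AAV-CTRL 2 or AAV-mVEGF-C 1), *Il10* from −0.027 to 0.38 (reversed without AAV-mVEGF-C 2), and *Il21* from −0.53 to 0.67 (reversed without AAV-CTRL 2 or AAV-mVEGF-C 1). The cause was not tested. *Il21* dropped out under the filter of 10 reads. Where a group had 1 library left, that library was assumed to vary like the other group.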
